A study of Cricetulus griseus with 8 samples.

Results

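The liver X receptors (LXRs) and their targets in cholesterol efflux were examined in phagocytes that had met dying cells. The group has 9 genes, listed by name when earlier results of these data were known. They are the receptors Nr1h2 and Nr1h3, the efflux transporters Abca1, Abca7 and Abcg1, and the LXR targets Mylip, Arl4c, Lpcat3 and Smpdl3a. All 9 were listed among the 26776 named genes of the deposited table. The phagocytes were LR73 cells, a line derived from Chinese hamster ovary cells that the labels class as fibroblast. They were kept alone in 4 libraries and co-cultured with apoptotic Jurkat cells in 4 others. The Jurkat cells, of human T cell origin, received 1500 mJ of UV-C and a further 4 h in culture before they met the phagocytes. All phagocytes were grown in alpha-MEM with serum. The data columns carry the prefix GFP, which the labels do not explain, and the length of the co-culture is not given in the sources used here. The replicates are called biological in the series' design text, but nothing says how the cultures were separated, so p-values measure the spread between these libraries.

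LXRs are nuclear receptors that bind DNA together with a retinoid X receptor and are switched on by oxidised sterols and by desmosterol, an intermediate of cholesterol synthesis. Without ligand they hold corepressors at their targets, and with ligand they recruit coactivators. Active LXRs are known to raise the pumps that export cholesterol, to raise a ubiquitin ligase that removes lipoprotein receptors, and so to act opposite to SREBP2, the factor that drives cholesterol synthesis and uptake. In macrophages that engulf dying cells, a rise of Abca1 is a known part of the handling of the cholesterol taken up.

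In LR73 cells with apoptotic cells, 1 of the 7 members with enough reads to test passed the threshold, a limma adjusted p under 0.05 over all tested genes. This was Arl4c, a small GTPase gene that LXR regulates, which rose by 17.5%. No member passed in the lower direction. Abca1, the main cholesterol export pump, had a log2 fold change of -0.35 and missed the threshold in limma with all libraries (adjusted p = 0.0539). Of all 13494 tested genes 11.7% were called, 6.36% as higher and 5.31% as lower, and the groups did not overlap in 21.2%. Among the members the groups did not overlap in 2 of 7, Arl4c and Nr1h2. The median log2 fold change of the 7 members was 0.014 (-0.02 without alone library 1), and that of all tested genes was 0.0015.

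Depth ran from 22.7 M to 29.7 M reads (M, 1e6) in named genes per library. Alone library 1 stood apart from the other alone libraries, with its quartiles over all tested genes at -0.18 and 0.16 around them on the log2 scale, against -0.09 to 0.11 or closer in any other library, and a number of results are also given without it. Vimentin, fibronectin and decorin transcripts (Vim, Fn1, Dcn) were abundant, and 7 of 11 fibroblast markers could be tested, but others were at trace level, with 4 reads of Col1a1 and 10 of Col1a2 in all libraries together and none of Thy1. The 17 T cell markers too low to test summed to 3.80 to 7.10 normalized counts per library alone and 14.3 to 24.3 in the co-cultures, while Cd3d, Cd3g and Cd2 had no reads in any library. These T cell reads, 23 alone and 80 in the co-cultures, rose as a sum. Within it Cd4 went from 7 to 5 reads and Cd8a from 7 to 3. Of the 5 T cell markers that could be tested, limma called 1 lower and none higher, with a median log2 fold change of -0.03. Over all tested genes limma called 5.31% lower and 6.36% higher. DESeq2 called none of the 5. The part of T cell reads in the values of the members was not tested. Of 9 macrophage markers 7 were too low to test, with sums of 8.27 to 12.5 alone and 4.94 to 11.1 in the co-cultures. Normalized counts are read counts divided by 1 factor per library. They were not divided by transcript length, so levels are compared between libraries and not between genes. In such bulk samples, fewer cells of a kind and less RNA per cell cannot be told apart.

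Both receptors were expressed, and neither passed the test. Nr1h2, which encodes LXR beta, the form found in most tissues, had 815, 769.5, 798 and 782 normalized counts alone and 735, 741, 729.8 and 742 with apoptotic cells. Every co-culture library lay below every library of cells alone, and the co-cultures were very close to each other. The means were 791 ± 19.6 and 737 ± 5.58 (SD, n = 4 each), which is a log2 change of -0.10 (SE 0.04; adjusted p = 0.128 in limma), which did not pass. Without alone library 1 it was -0.09 (SE 0.04), also short of the threshold (adjusted p = 0.135).

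Nr1h3 encodes LXR alpha, the form known for its high expression in liver and macrophages. It had 776, 689, 706 and 688 normalized counts alone and 723, 748, 756 and 741 with apoptotic cells. Alone library 1 was the highest of all, the other alone libraries were the lowest, and the groups therefore overlapped. The log2 fold change was 0.06 (SE 0.05; adjusted p = 0.506 in limma), with a 95% interval from -3.70% to 12.1%. Without alone library 1 it was 0.10 (SE 0.04), and limma still did not call it (adjusted p = 0.112).

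**Figure D1:**
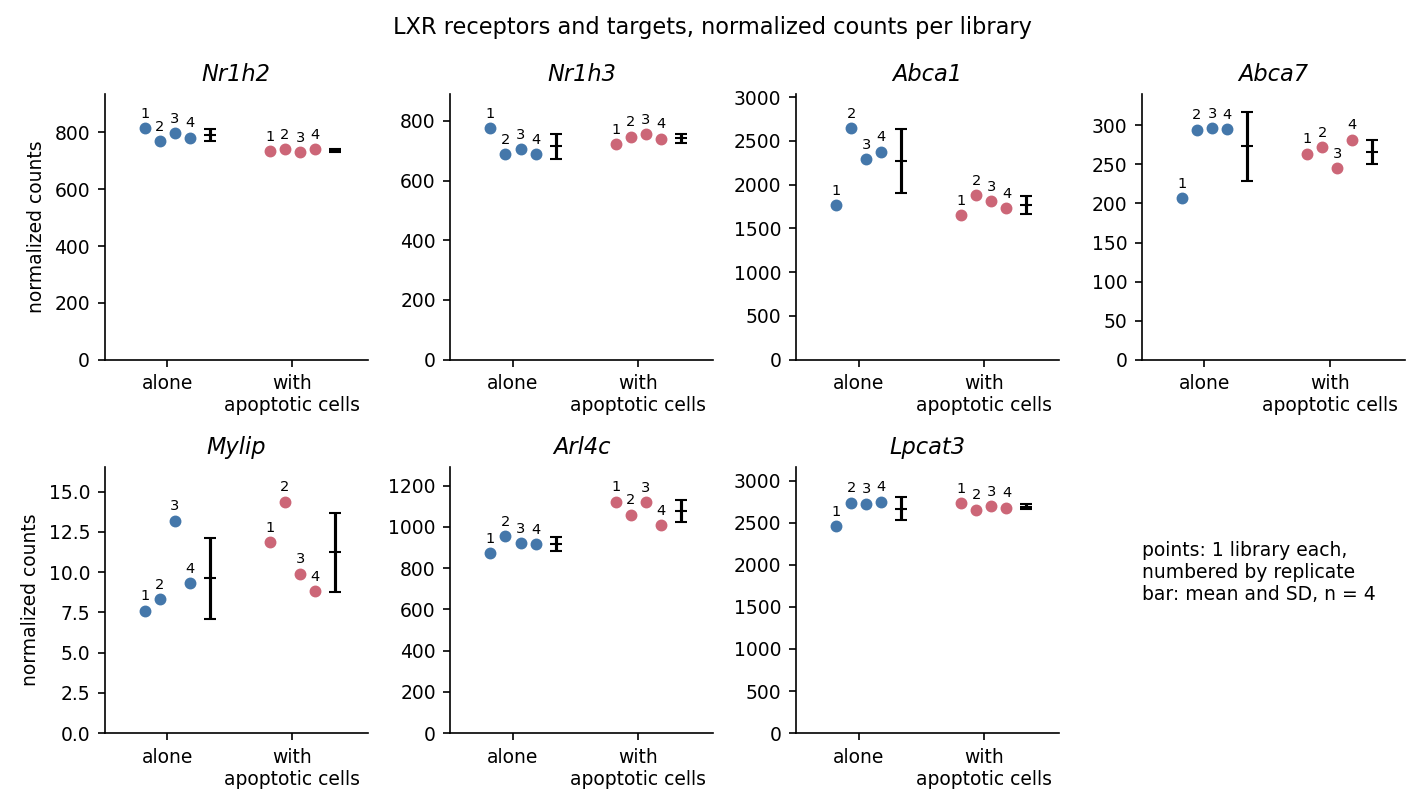
Normalized counts (vertical axes, from 0) of the 7 tested members in each library, alone or with apoptotic cells; points are libraries with their replicate numbers, bars the mean and SD of 4. Arl4c lies at 873 to 954 alone and 1009 to 1122 with apoptotic cells, while Abca1 alone library 1, at 1765, lies among the co-cultures, at 1649 to 1878.

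Abca1 encodes the pump that loads cholesterol and phospholipid onto apolipoprotein A-I. It had 1765, 2645, 2294 and 2375 normalized counts alone and 1649, 1878, 1813 and 1734 with apoptotic cells. Alone libraries 2 to 4 lay above every co-culture, but alone library 1 lay among them. The spread of the alone libraries, a CV of 16.2%, was far above the 2.04% that read counting alone gives at this depth. The log2 fold change was -0.35 (SE 0.10), with a 95% interval from -32.8% to -7.92%. Without alone library 1 the groups did not overlap and Abca1 fell by 27.4% (by limma -0.46 on a log2 scale with SE 0.04; adjusted p = 2.22e-08), when 26.0% of all tested genes were called. In the authors' deposited table Abca1 has an adjusted p of 0.00887 with all libraries. The estimate was below 0 with any library left out, from -0.46 to -0.27 on the log2 scale. With all 8 libraries, Abca1 was called lower in other fits: limma with array weights (adjusted p = 5.47e-06, 25.8% of all genes called), limma with TMM scaling (0.0453, 11.5%), edgeR (0.0411 with TMM and 0.0437 with median of ratios, 11.6% with either) and DESeq2 (0.00911, 11.8%). With any library other than alone library 1 left out, limma did not call Abca1 (adjusted p = 0.0918 to 0.152).

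Abca7, a close relative of Abca1 that can also export lipid and is linked to phagocytosis, had 207, 294, 296 and 295 normalized counts alone and 264, 272, 245 and 282 with apoptotic cells. Alone library 1 was the lowest of all, and the other alone libraries lay just above every co-culture. The log2 fold change was -0.03 (SE 0.11; adjusted p = 0.905 in limma), and -0.15 (SE 0.07, adjusted p = 0.109) without alone library 1. Its 95% interval with all libraries ran from -17.4% to 16.9%.

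Abcg1, which passes cholesterol on to HDL particles, was essentially not detected. It had 0 reads in all 4 libraries alone, which allows up to 0.0287 RPM (reads per 1e6 reads, here 3 reads of the group's total), and 1 read each in co-culture libraries 1 and 4. An exact two-sided permutation test over the 8 libraries gave p = 0.429, where the smallest p it can give is 0.0286. Smpdl3a, a secreted phosphodiesterase gene that LXR is known to raise, had no read in any library, an upper limit of 0.0149 RPM (3 reads of all those counted). Of the 9 members, 7 thus reached the mean of 10 normalized counts required for testing, and nothing can be said of a change in Abcg1 and Smpdl3a.

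Arl4c, which is known for roles in membrane traffic and in cholesterol export, had 873, 954, 920.5 and 917 normalized counts alone and 1122, 1058, 1120.0 and 1009 with apoptotic cells. All co-cultures lay above all libraries alone, and co-culture library 4 came nearest to them. The means were 916 ± 33.3 and 1077 ± 54.4 (SD, n = 4 each), which is a log2 change of 0.23 (SE 0.05; adjusted p = 0.0126 in limma). The call was lost without co-culture library 1 (log2 fold change 0.21, adjusted p = 0.0523), and the adjusted p ran from 0.000614 to 0.0523 over all alternatives. In the authors' deposited table the adjusted p is 0.00224.

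Lpcat3 encodes the enzyme that puts polyunsaturated chains into membrane phospholipids. It had 2458, 2737, 2725 and 2749 normalized counts alone and 2729.8, 2656, 2698 and 2678 with apoptotic cells. Apart from alone library 1, which was lowest, all libraries lay within a narrow band. The log2 fold change was 0.01 (SE 0.04; adjusted p = 0.857 in limma) and turned to -0.02 without alone library 1. The 95% interval with all libraries ran from -5.23% to 7.58%.

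Mylip, also called IDOL, encodes the ubiquitin ligase that sends lipoprotein receptors to the lysosome. It stood just above the limit for testing, with 7.597, 8.34, 13.2 and 9.31 normalized counts alone and 11.9, 14.4, 9.89 and 8.81 with apoptotic cells. The groups overlapped widely. With 40 reads in all alone libraries and 43 in all co-cultures, the log2 fold change of 0.21 (SE 0.25; adjusted p = 0.617 in limma) had a 95% interval from -20.6% to 68.8%, so a change of moderate size was not detectable at this depth. Without alone library 1 the estimate was 0.12 (adjusted p = 0.814).

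**Figure D2:**
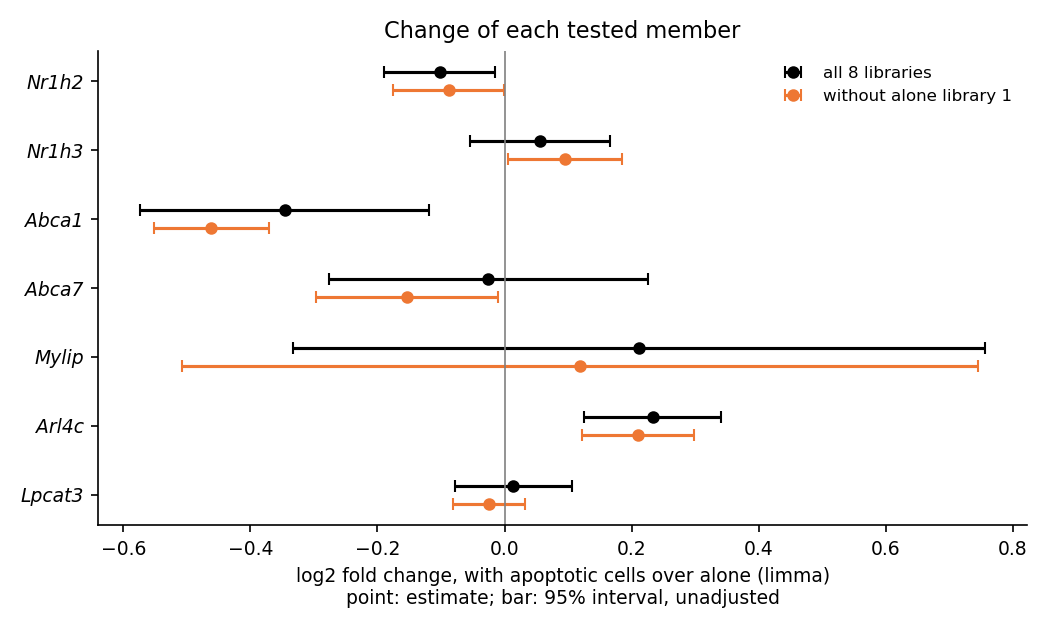
Log2 fold change with apoptotic cells over alone (horizontal axis) for the 7 tested members by limma; points are estimates and bars unadjusted 95% intervals, with all 8 libraries in black and without alone library 1 in orange. Abca1 moves from -0.35 to -0.46 and its bar shortens, Arl4c stays at 0.23 and 0.21, and the widest bar is that of Mylip.

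Alone library 1 touched the members unequally. On the log2 scale Abca1 lay 0.46 and Abca7 0.51 below the mean of the other alone libraries, while Nr1h3 lay 0.16 and Nr1h2 0.06 above it. Only 7.93% of all tested genes were further down than Abca1 in that library, and 6.42% further than Abca7. The transporter relatives Abca2, Abca5, Abca6 and Abca9 were low there too, all 4 of the other tested ABCA and ABCG genes, named after their values were seen, at -0.55 to -0.34. This was not particular to transporters. Of 16 tested LXR partners and coregulators 13 lay below the other alone libraries, and the median of the 16 was -0.56. In the co-cultures, the member other than Mylip that lay furthest from the rest of its group was Abca7 in library 3, at -0.15.

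**Figure D3:**
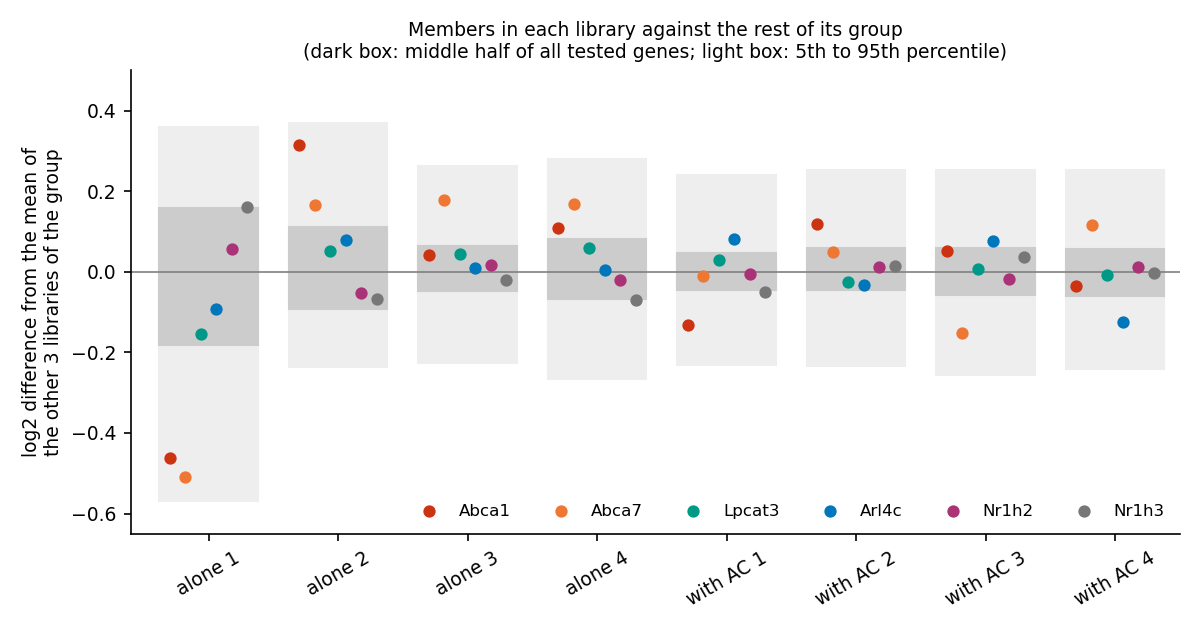
Log2 difference of each library from the mean of the other 3 of its group (vertical axis), for 6 members (colours) in the 4 libraries alone and the 4 with apoptotic cells (with AC); dark boxes run between the quartiles of all tested genes, light boxes those from the 5th to the 95th percentile. In alone library 1 the dark box is widest, from -0.18 to 0.16, and Abca1 and Abca7 lie at -0.46 and -0.51.

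Over the 8 libraries, the genes whose log2 levels ran most like those of Abca1, among 8939 others with a proper symbol and a mean level of 100 or more, were Fam21c (Pearson r = 0.987, Spearman rho = 0.976), Myo18a (0.987 and 0.976), Stx3 (0.982 and 0.929), Gxylt1 (0.981 and 0.952) and Tbc1d13 (0.980 and 0.810). Those that ran most against it were Cct3 (Pearson r = -0.991, Spearman rho = -0.952), Plin2 (-0.987 and -0.905), Eif3d (-0.982 and -0.929), Snx4 (-0.980 and -0.833) and Ccnb2 (-0.979 and -0.905). Plin2 coats lipid droplets, Cct3 is a chaperonin subunit and Stx3 a syntaxin of vesicle fusion. These values describe 8 libraries that fall into 2 groups and share the deviation of alone library 1. After the group means were taken away, r was between 0.964 and 0.976 for the first set and between -0.986 and -0.958 for the other. Without alone library 1 it was at least 0.981 in the first. Both sets were picked by their r over these same libraries, so these values are no separate check of the likeness. Among the members, Pearson r with Abca1 was 0.615 for Abca7, 0.444 for Lpcat3, 0.435 for Nr1h2, -0.096 for Mylip, -0.520 for Arl4c and -0.811 for Nr1h3. With the group means taken away it was 0.826, 0.818, -0.852, 0.288, 0.496 and -0.783, in the same order. The sign thus turned for Nr1h2, Mylip and Arl4c.

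Among 16 tested partners and coregulators of LXR, 1 fell, none rose and 15 were not called, beside 11.7% called of all tested genes. Their median log2 fold change was 0.10, or -0.011 without alone library 1. Gps2, a subunit of the corepressor complex that holds LXR targets in check, fell from 511 ± 2.61 to 449.8 ± 8.77 normalized counts (SD, n = 4 each), which is a log2 change of -0.19 (SE 0.04; adjusted p = 0.0215 in limma). Its libraries lay at 509 to 514 alone and at 440.5 to 462 with apoptotic cells. That call was lost when alone library 3 or 4 was left out, or co-culture library 1, 2 or 4, with an adjusted p between 0.0501 and 0.0722. The corepressor gene Ncor1 stood at 1860.2 ± 352 and 2003 ± 78.9 normalized counts, with a log2 fold change of 0.13 (SE 0.12; adjusted p = 0.524 in limma), which turned to -0.02 without alone library 1. The RXR genes Rxra (0.08, SE 0.09, and 0.03 without alone library 1) and Rxrb (-0.06, SE 0.03) were not called either, and Rxrg had no reads. Without alone library 1, where 13 of the 16 were below the other alone libraries, 3 rose and 2 fell, when 26.0% of all tested genes were called. Those that rose, named after their values were seen, were the coactivators Crebbp (0.18) and Med1 (0.10) and the corepressor deacetylase Hdac3 (0.12), and Ncoa2 (-0.15) fell beside Gps2. With all libraries none of these 4 was called by limma, at 0.32 for Crebbp (adjusted p = 0.121), 0.25 for Med1 (0.209), 0.09 for Hdac3 (0.260) and 0.07 for Ncoa2 (0.8292), whose sign thus turned.

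Among 15 tested other genes known as LXR targets, 1 rose, none fell and 14 were not called, beside 11.7% called of all tested genes. Their median log2 fold change was 0.0028, or -0.04 without alone library 1. The exception was Tnfaip3, which encodes the NF-kB inhibitor A20 and is controlled by inflammatory signals besides, and which went from 2161 ± 32.0 to 2537 ± 62.5 normalized counts (by limma 0.23 on a log2 scale with SE 0.03; adjusted p = 0.00182). Srebf1, the gene of the lipogenic factor SREBP1 and a classic LXR target, stood at 279.7 ± 22.6 and 258 ± 21.2 normalized counts, which is a log2 change of -0.12 (SE 0.08; adjusted p = 0.391 in limma), and of -0.06 without co-culture library 3. Fatty acid synthase, Fasn, stood at 12868 ± 2033 and 13438 ± 597 (by limma 0.08 on a log2 scale with SE 0.10; adjusted p = 0.654), and -0.04 without alone library 1.

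Pltp, the phospholipid transfer protein gene, and Lpl, the lipoprotein lipase gene, were abundant and close to level, at 1389 and 1379 and at 12629.8 and 12794 normalized counts (log2 fold changes -0.01 and 0.02, SE 0.04 for both). Mertk encodes an engulfment receptor that LXR is known to raise in macrophages. It had 97.8, 118, 119.8 and 134 normalized counts alone and 136, 135, 133 and 149.7 with apoptotic cells. Alone library 1 was the lowest and alone library 4 overlapped the co-cultures. The log2 fold change of 0.24 (SE 0.10) did not pass (limma adjusted p = 0.160), and without alone library 1 it was 0.16 (adjusted p = 0.255). The lipoprotein genes among the targets were near 0: Apoe had 8 reads alone and 7 with apoptotic cells, and Apoc1 and Apoc2 had none.

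Of 7 tested enzymes and carriers of the sterols that act on LXR, 4 fell, none rose and 3 were not called. Limma called 5.31% of all tested genes lower. The median log2 fold change of the 7 was -0.30. Without alone library 1 it was -0.21 and 5 were called lower, when 26.0% of all tested genes were called. All 4 that fell with all libraries are enzymes of cholesterol synthesis. Sc5d, a sterol desaturase, had 4001, 4852, 4489.8 and 4645 normalized counts alone and 2961, 3089.6, 2973 and 2928 with apoptotic cells. No co-culture library came near the libraries alone, and Sc5d fell by 33.4% (by limma -0.59 on a log2 scale with SE 0.05; adjusted p = 0.000129). Lanosterol synthase, Lss (-0.35), the isomerase Ebp (-0.30) and the sterol reductase Dhcr7 (-0.15), also fell. The limma call of Dhcr7 was lost when alone library 3 was left out, or co-culture library 2 or 4, with an adjusted p between 0.0551 and 0.0654. Ch25h, the enzyme that makes 25-hydroxycholesterol, had 5 reads in each condition and was too low to test.

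Of the receptors that MYLIP is known to remove, 1 is given here and was not called. Lrp8, the apolipoprotein E receptor 2 gene, stood at 1860.1 and 1905 (by limma 0.04 on a log2 scale with SE 0.05; adjusted p = 0.671). The 15 tested genes of a cholesterol synthesis list, given for reference, had a median log2 fold change of -0.51. Limma called 12 of them lower and none higher, beside 5.31% called lower of all tested genes. Without alone library 1 that median was -0.48. The 6 with the lowest adjusted p were Hmgcs1 (-1.12), Insig1 (-0.94), Msmo1 (-0.88), Idi1 (-0.75), Fdft1 (-0.64) and Fdps (-0.58).

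None of the 4 other ABCA and ABCG genes that could be tested was called by limma, beside 11.7% called of all tested genes. None of the 4 had an unadjusted limma p under 0.05, beside 3571 of all 13494 tested genes. Neither edgeR with TMM nor DESeq2 called one, beside 11.6% and 11.8% of all genes they tested. Abca2, a lysosomal relative of Abca1, stood at 1533 ± 275 and 1639 ± 32.3 normalized counts, which is a log2 change of 0.12 (SE 0.11; adjusted p = 0.541 in limma), and of -0.02 without alone library 1. Abca3 had 6 and 5 reads, and the export pump Abcg2 had none.

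Of 18 tested genes that store, release or carry cholesterol, 2 were called higher, 1 lower and 15 not at all. Over all tested genes limma called 6.36% higher and 5.31% lower. The median log2 fold change of the 18 was -0.03, or -0.06 without alone library 1. Cav1, the cholesterol-binding coat protein of caveolae, had 22604, 23199, 24226 and 24633 normalized counts alone and 27782, 27279.6, 28266 and 28091 with apoptotic cells. The groups lay far apart, and Cav1 rose by 0.24 on the log2 scale (SE 0.03; adjusted p = 0.00185 in limma). Plin2, a lipid droplet coat gene, rose by 0.15 (SE 0.04; adjusted p = 0.0389 in limma), and the sterol carrier gene Osbpl2 fell by 0.13 (SE 0.03; adjusted p = 0.0342 in limma). The calls of Plin2 and Osbpl2 were lost without any 1 library other than alone library 1 (adjusted p = 0.0812 to 0.116 and 0.0751 to 0.103). Both were also lost with no filter on low genes (0.0601 and 0.0521), and that of Plin2 with TMM scaling (0.0590). The esterifying enzyme gene Soat1 (0.14, SE 0.05, limma adjusted p = 0.0874), the lysosomal sterol carrier gene Npc2 (-0.14, SE 0.06, adjusted p = 0.153) and the HDL receptor gene Scarb1 (-0.03, SE 0.03, adjusted p = 0.618) were not called. Without alone library 1, limma called Soat1 higher (0.09, adjusted p = 0.0166) and Npc2 lower (-0.07, adjusted p = 0.0345). In that fit 5 of the 18 were higher and 5 lower, when 26.0% of all tested genes were called.

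**Figure D4:**
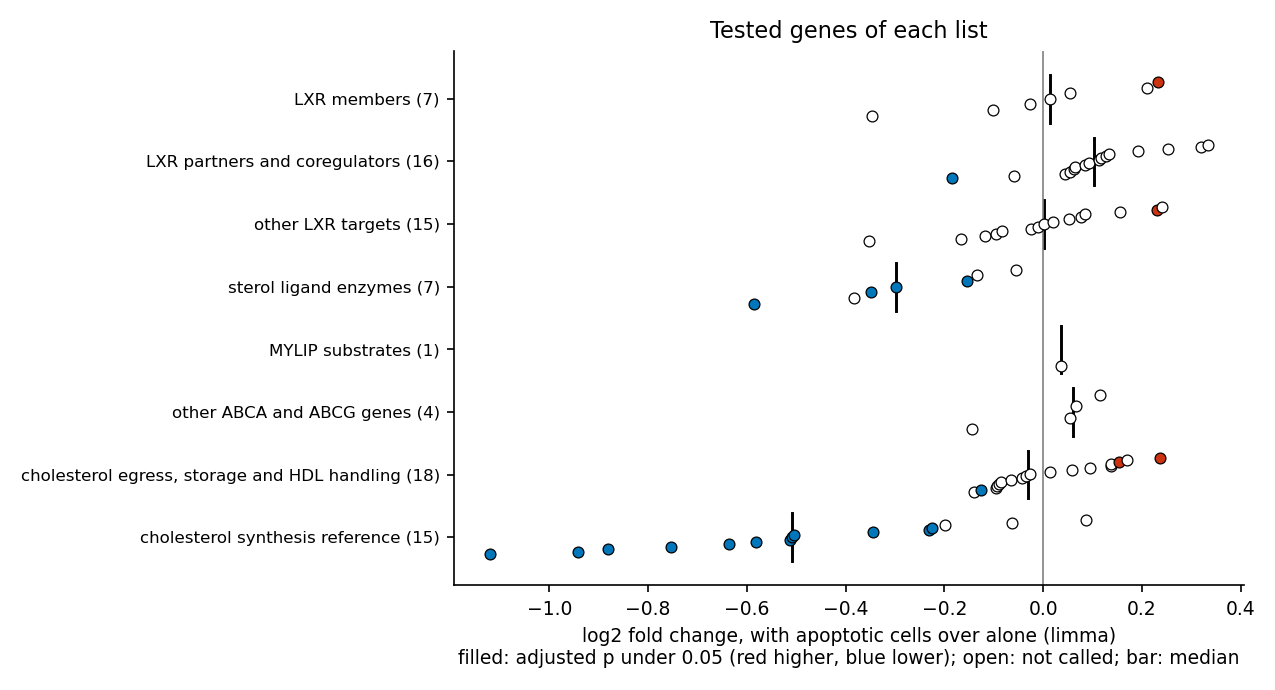
Log2 fold change with apoptotic cells over alone (horizontal axis) of each tested gene, by list with the number tested; filled points passed a limma adjusted p under 0.05 (red higher, blue lower), open points did not, and bars mark medians. The members have a median of 0.014 and the other LXR targets 0.0028, while the sterol ligand enzymes lie at -0.30 and the cholesterol synthesis genes at -0.51.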

How the data were processed

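RNA was measured in 8 libraries, 4 per condition. The submitters' processing notes list FastQC, STAR, featureCounts and DESeq2, with no version for any. Build, annotation, strand setting and what was done with reads fitting both species: not given in the sources used here. The authors deposited a normalized signal for each gene and library. It is the gene's read count over a library factor, as judged from its steps: 100% of values were whole multiples of 1 read within 0.01 reads. A row without a gene name (0.140 to 0.176% of reads) was left out. Per the file headers, the deposited table also holds the authors' own comparison: a mean signal, a log2 fold change and its error, a score from their test, and p-values with adjusted p-values.

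Where a gene's mean reached 10 normalized counts, it was tested by limma-trend (limma 3.58.1, R 4.3.3) on log2(normalized count + 1), with group as the only term, two-sided, with Benjamini-Hochberg adjustment over all 13494 genes; this scale understates changes of low genes. Count tests on the recovered reads (edgeR 4.0.16 quasi-likelihood, DESeq2 1.42.0), other pseudocounts, filters and scalings, array weights, a replicate block and leaving out each library were alternatives. On simulated data the limma step recovered 27 of 67 changes of 1.2-fold, 55 of 67 of 1.5-fold and 60 of 66 of 2-fold. There were 10 false calls among 13423 genes. A gene that was not called may thus have changed by 1.2-fold. No simulated library was made to deviate as alone library 1 did. Intervals and limits from reads cover counting error only. Of the list symbols, 166 of 192 were found in the table, and all 9 members in the RefSeq table CriGri-PICRH-1.0, from which no positions are given because the build of the files is not known. Named were all members, a fixed set of pathway genes, up to 6 called genes per list by adjusted p, and the 5 genes at either end of likeness to Abca1. Some genes of the fixed set are not reported here and stand in no list count, and the planned sequence comparison was not analysed here. Members and lists were chosen with earlier results of these data known.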

Additional observations from a re-analysis of the deposited data

Results flagged for a closer look

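Some values lay far from the rest of their group of 4, with a gap to the nearest library that passes Dixon's limit for 4 values. Chance flags about 1 in 20 groups, and 88 pairs of a gene and a group were examined, of which 8 gave such a value and 4 of these were in alone library 1. Among the members, these were Abca7 at 207 and Lpcat3 at 2458 normalized counts, both the lowest of the alone group. In the same library Lrp8 (1694) was lowest and Idi1 (3409) highest. Pltp was lowest in alone library 2 (1349.8), Srebf1 (226) and Npc2 (5106) in co-culture library 3, and Snx4 (3411) in co-culture library 2.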

How the results depend on the processing

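The count of members called higher was 1 under every alternative other than leaving out a library, where it ran from 0 to 1, the 0 being without co-culture library 1. The count called lower was 0 and became 1, Abca1, with the replicate block, array weights, TMM scaling, edgeR under either scaling and DESeq2, and ran from 0 to 1 over left-out libraries, the 1 being without alone library 1. Over all genes, 858 were higher and 716 lower, against 498 and 400 with the replicate block and 1804 and 1674 with array weights; over left-out libraries they ran from 416 to 1811 higher and from 356 to 1694 lower. Over all tested genes, same-numbered libraries did not deviate together (r from -0.0898 to 0.0682). That does not settle whether the cultures were paired. For Abca1, library 1 was the lowest and library 2 the highest in both groups. With the block Abca1 had an adjusted p of 0.0244 in limma, and those of Gps2 (0.0805), Dhcr7 (0.0538), Plin2 (0.0552) and Osbpl2 (0.0879) missed the threshold. The block changed no other call among the 35 tested genes named by the rules given above, without those picked only for likeness to Abca1. Genes named after their values were seen are outside the 35, among them Ncoa2, whose sign turned without alone library 1. Of the 35, 28 kept their sign under all alternatives and 11 of the 16 called ones were called in all. Signs turned near 0: with array weights Lpcat3 was at -0.018, Fasn at -0.016 and Lpl at -0.0084, and over left-out libraries Abca7 ran from -0.15 to 0.019, Lpcat3 from -0.025 to 0.029, Fasn from -0.042 to 0.15, Lpl from -0.010 to 0.038, Ncor1 from -0.019 to 0.20, Lrp8 from -0.0085 to 0.054 and Abca2 from -0.023 to 0.19. The causes were not tested. Matching absent symbols through LOC numbers moved no list count by over 1.5 times. Depth limits Mylip, Abcg1 and Smpdl3a.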

Other observations

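The ratio of Nr1h2 to Nr1h3 reads, looked at after the values of both genes were seen, does not depend on the scaling between libraries. It was 1.05, 1.12, 1.13 and 1.14 in libraries 1 to 4 alone and 1.02, 0.991, 0.965 and 1.00 with apoptotic cells. The groups did not overlap, although alone library 1 lay close to the co-cultures. Nr1h2 by itself did not overlap either, as was so for 21.2% of all tested genes, and ratios of other genes were not examined. Transcript lengths were not used, so the ratio says nothing of which receptor is more abundant.

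Fads1, a fatty acid desaturase gene listed among the LXR targets, had a limma estimate of -0.17 on a log2 scale (SE 0.10; adjusted p = 0.308), and of -0.28 (adjusted p = 0.000112) without alone library 1, which lay at -0.46 against the other alone libraries. It was named after its values were seen. Fads2 had 1 read alone and 8 with apoptotic cells.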
